A study of Sus scrofa with 33 samples.

Results

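RBM3 and CIRBP are the cold-inducible RNA-binding proteins, and their transcripts were followed here through 120 min of pulmonary banding and a further 60 min in the right ventricle of the pig. Each gene was taken as the probe set to which the array's annotation gives its symbol alone. There was 1 such probe set for each, Ssc.3311.1.S1_at for RBM3 and Ssc.2163.2.A1_at for CIRBP, so the members were 2 of the 6765 genes that the array measured with a single-symbol probe set. The pair was picked with results of these data in view. Earlier results included the fall of CIRBP at 120 min, and which values led to RBM3 is not recorded. Changes from baseline within an arm are therefore given as descriptions without a test, adjusted p come from fits over all 23999 probe sets, and exact and permutation p come from the values of the pair alone.

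The samples were 33 biopsies of the right ventricular free wall from 11 pigs, each sampled before banding (baseline), when the pulmonary artery had been banded for 120 min, and once more 60 min later. Banding narrows the outflow of the right ventricle and served here to make that ventricle fail. After failure the animals were randomised: 5 control pigs stayed banded, and 6 shunt pigs were given a modified Glenn shunt, which leads blood of the upper body to the lung arteries past the right ventricle, while banding went on. The sources used here do not give strain, sex, age, anaesthesia or body temperature, and no pig was biopsied over the same hours without banding.

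Both proteins are small, with an RNA recognition motif followed by a tail rich in glycine and arginine. They are best known for rising when mammalian cells are cooled mildly and falling when cells are warmed, and they bind messenger RNAs and influence their splicing, stability and translation. Other stresses, among them low oxygen, are also known to alter them, and part of their response to temperature is made through alternative splicing. A single probe set does not separate splice forms, and the sequences it reads were not used here.

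The pair did not move together. RBM3 rose and CIRBP fell in each of the 11 pigs over the first 120 min, as 3.96% and 5.88% of the probe sets did in those directions. The same held from baseline to the last biopsy, where 4.51% rose and 8.41% fell in every pig. Over all pigs no level of either gene at baseline overlapped the levels at 120 min (0.571% of probe sets lay wholly above baseline and 0.692% below) or at the last biopsy (0.538% and 0.875%). RBM3 was 2.21-fold higher at 120 min in the shunt pigs and 1.42-fold higher in the control pigs, while CIRBP was 2.60-fold and 1.71-fold lower. The plot of levels by biopsy shows every animal.

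**Figure D1:**
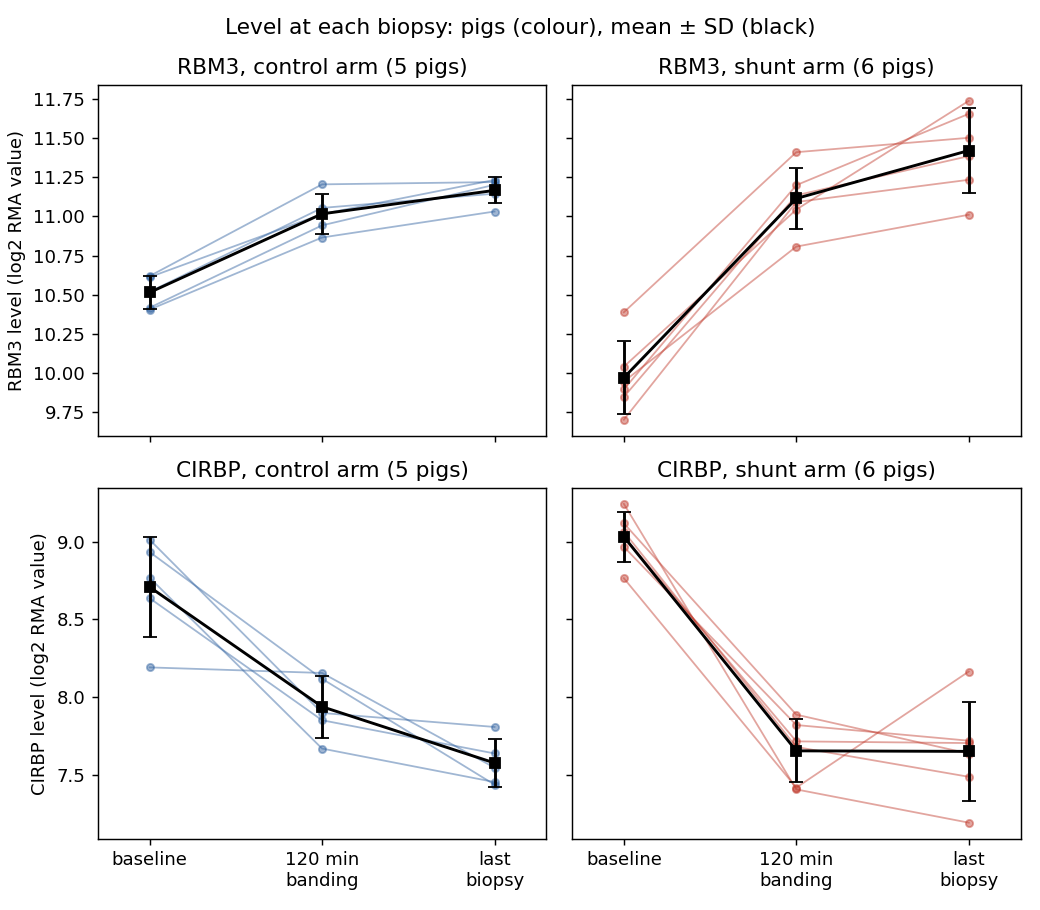
Level of RBM3 (top) and CIRBP (bottom) as log2 RMA values at the baseline, 120 min and last biopsies, in the 5 control pigs (left, blue) and the 6 shunt pigs (right, red). Thin lines join the biopsies of a pig, and black squares with bars are means ± SD; RBM3 lay higher at both later biopsies than at baseline in 11 of 11 pigs and CIRBP lower in 11 of 11.

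RBM3, which is taken to favour translation under mild cold, was a strongly hybridising probe set whose mean exceeded that of 97% of the probe sets tested. In the control pigs its baseline levels, as log2 RMA values, were 10.62, 10.42, 10.61, 10.40 and 10.52 in pigs 1 to 5. At 120 min they were 11.21, 10.94, 11.02, 10.87 and 11.05, and at the last biopsy 11.22, 11.20, 11.23, 11.03 and 11.15. The lowest control value at 120 min was thus above the highest at baseline, whereas the ranges at 120 min and at the last biopsy overlapped. In the 6 shunt pigs the baseline level ran from 9.70 to 10.39 with a median of 9.92, the level at 120 min from 10.81 to 11.41 with a median of 11.11, and the level at the last biopsy from 11.01 to 11.74 with a median of 11.44. Again the baseline stood apart from both later biopsies, and those overlapped each other.

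Over the 11 pigs RBM3 changed by 0.85 ± 0.060 between baseline and 120 min (fitted log2 change ± SE, 95% interval 0.73 to 0.98), a rise of 1.81-fold. In the shunt pigs the change was 1.15 ± 0.082 and in the control pigs 0.50 ± 0.089. It was the 137th largest of the changes in 6765 genes over all pigs. In 11.6% of the probe sets the level rose past the threshold in this comparison, but that contrast was known when the pair was picked and nothing is read from it. From baseline to the last biopsy RBM3 rose 2.74-fold with the shunt (1.45 ± 0.082) and 1.57-fold without it (0.65 ± 0.089).

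CIRBP, which shuttles between nucleus and cytoplasm and takes part in stress responses, gave a mean above that of 79.1% of the probe sets. Its baseline levels in control pigs 1 to 5 were 8.64, 9.01, 8.93, 8.77 and 8.19. At 120 min they were 7.85, 7.90, 8.12, 7.67 and 8.16, and at the last biopsy 7.64, 7.81, 7.44, 7.45 and 7.55. Control pig 5 began lowest and changed by -0.036 at 120 min and by -0.61 in the last hour, whereas control pigs 1 to 4 changed by -1.11 to -0.79 in the first period. In the shunt pigs CIRBP ran from 8.77 to 9.24 at baseline (median 9.05), from 7.41 to 7.89 at 120 min (median 7.70) and from 7.19 to 8.16 at the last biopsy (median 7.67). No shunt value after baseline reached the lowest baseline value.

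The fitted change of CIRBP at 120 min over the 11 pigs was -1.10 ± 0.10 (SE, 95% interval -1.31 to -0.89), 2.15-fold lower. The shunt arm had -1.38 ± 0.14 and the control arm -0.77 ± 0.15. Among 6765 genes the fall over all pigs was the 6th largest, in a comparison where 17.4% of the probe sets fell past the threshold. At the last biopsy CIRBP stood 2.60-fold below baseline in the shunt arm (-1.38 ± 0.14) and 2.19-fold below it in the control arm (-1.13 ± 0.15).

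**Figure D2:**
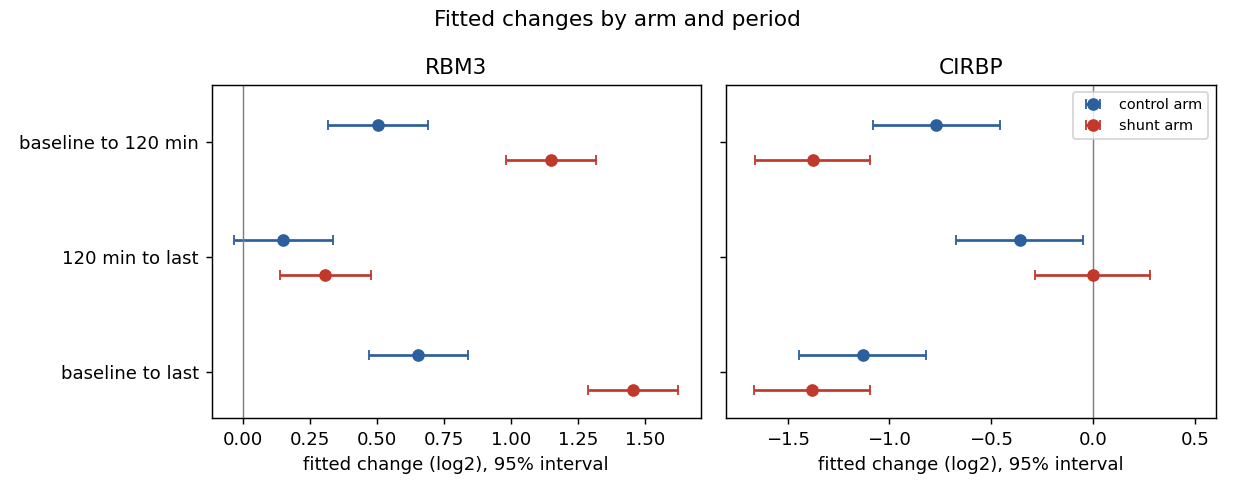
Fitted log2 change of RBM3 (left) and CIRBP (right) in each period, in the control arm (blue, 5 pigs) and the shunt arm (red, 6 pigs), with 95% intervals from the limma fit. For RBM3 the intervals of the arms lie apart from baseline to 120 min and from baseline to the last biopsy; for CIRBP the intervals of the last hour are -0.67 to -0.05 in the control arm and -0.29 to 0.28 in the shunt arm.

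The last hour asked what continued banding did in the control pigs and what the shunt added. RBM3 went on upward in all 11 animals, by 0.015, 0.26, 0.22, 0.17 and 0.091 in control pigs 1 to 5 and by 0.092 to 0.70 in the shunt pigs (median 0.23). Its mean over the 11 pigs was 0.24 ± 0.19 (SD), with p = 0.000977 in an exact two-sided sign-flip permutation test, the smallest p that 11 pigs allow. Such a rise in every pig was seen in 0.0958% of the 23999 probe sets. The test leaves out that RBM3 was picked from a table, and the values at 120 min enter the earlier change as well.

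Within each arm the fit over the whole table made no call for RBM3 in the last hour. The shunt arm had 0.31 ± 0.082 (SE, adjusted p = 0.330 by limma with Benjamini-Hochberg adjustment) and the control arm 0.15 ± 0.089 (adjusted p = 1.00). No probe set of 23999 passed in either arm, while the shunt arm had 2146 (8.94%) and the control arm 737 (3.07%) with an unadjusted limma p under 0.05. RBM3 in the shunt arm was among these. The arms differed by 0.16 ± 0.12 (95% interval -0.09 to 0.41, adjusted p = 1.00).

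CIRBP fell further in 10 of 11 pigs in the last hour. The changes were -0.21, -0.090, -0.68, -0.22 and -0.61 in control pigs 1 to 5. In the shunt pigs they ran from -0.25 to 0.75 with a median of -0.15, and the rise of 0.75 belonged to shunt pig 5 alone, whose level went from 7.42 to 8.16. The mean over the 11 pigs was -0.17 ± 0.37 (SD, exact sign-flip p = 0.170). A fall in 10 or more pigs was seen in 1.06% of the probe sets.

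By limma the change of CIRBP in the last hour was -0.36 ± 0.15 in the control arm (SE, adjusted p = 1.00, with an unadjusted p under 0.05, as 3.07% of the probe sets had) and -0.0035 ± 0.14 in the shunt arm (adjusted p = 0.997). Without shunt pig 5 the shunt value was -0.15 ± 0.13, and without shunt pig 1, 2, 3 or 6 it was above 0, at most 0.046. The difference between the arms was 0.36 ± 0.20 (95% interval -0.06 to 0.78, adjusted p = 1.00).

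The change of RBM3 minus that of CIRBP in the last hour was 0.40 ± 0.43 (SD, n = 11 pigs), above 0 in 10 of 11, with p = 0.0166 by the exact two-sided sign-flip test. It averaged 0.51 ± 0.28 in the control pigs, above 0 in 5 of 5, and 0.31 ± 0.53 in the shunt pigs, above 0 in 5 of 6, with exact p of 0.0625 and 0.219, the first of which is the smallest that 5 pigs allow. This was 1 of 3 such tests of the last hour. Like the test of RBM3 alone, it leaves out that the pair was picked with results of these data in view. The biopsy that opens the last hour also enters the earlier changes, among them the fall of CIRBP known beforehand. These p are therefore not offered as independent support.

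The arms lay apart in RBM3 at baseline, before banding and before the pigs were allotted to a treatment. RBM3 at baseline averaged 9.97 ± 0.23 over the 6 shunt pigs and 10.51 ± 0.10 over the 5 control pigs (SD), and every shunt value was below every control value. The difference was -0.55, with p = 0.00433 in an exact two-sided permutation test, the smallest that 6 against 5 pigs allow, and an adjusted p of 0.113 by limma over the whole table (-0.55 ± 0.11, SE). These baseline values also enter the whole-course difference given below, which may have led to the choice of RBM3. The exact p leaves that choice out and is not offered as independent support. In that comparison 5 of 23999 probe sets passed (0.0208%), and 0.771% had all shunt values below all control values. The mean of CIRBP differed the other way, 9.03 ± 0.16 against 8.71 ± 0.32 (SD), but its arms overlapped. The difference was 0.32 ± 0.14 (SE, adjusted p = 0.383 by limma, unadjusted exact permutation p = 0.0433).

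At the later biopsies the levels of the arms overlapped. RBM3 at 120 min averaged 11.12 ± 0.20 over the shunt pigs and 11.02 ± 0.13 over the control pigs (SD, exact permutation p = 0.372). At the last biopsy it was 11.42 ± 0.27 and 11.17 ± 0.083 (exact permutation p = 0.0779). CIRBP was 7.65 ± 0.20 and 7.94 ± 0.20 at 120 min (exact permutation p = 0.0563) and 7.65 ± 0.32 and 7.58 ± 0.15 at the last biopsy (exact permutation p = 0.654). These are 4 of 6 comparisons of level between the arms, with unadjusted p. The changes of RBM3 in the shunt pigs thus started from lower baselines and ended at levels that overlapped those of the control pigs.

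Set as changes, the arms did not overlap at 120 min, before the shunt, although neither difference passed over the whole table. RBM3 rose by 0.86 to 1.39 in the shunt pigs and by 0.40 to 0.59 in the control pigs, with no overlap, a difference of 0.64 ± 0.12 (SE, adjusted p = 0.203 by limma). CIRBP changed by -1.84 to -1.15 in the shunt pigs and by -1.11 to -0.036 in the control pigs, also with no overlap, a difference of -0.61 ± 0.20 (adjusted p = 0.541). No probe set passed in this comparison by limma, 1655 had an unadjusted p under 0.05, and 0.513% and 0.500% had every shunt change above or below every control change.

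Over the whole course RBM3 was the only probe set of 23999 that passed for a difference between the arms, so that 0.00417% were called. Its change was 0.80 ± 0.12 larger in the shunt arm (SE, 95% interval 0.55 to 1.05, adjusted p = 0.0200 by limma). The shunt pigs changed by 1.07 to 1.76 and the control pigs by 0.60 to 0.79, again without overlap, a pattern that 0.354% of the probe sets had. This value may have been among those that led to the choice of RBM3, and it is not offered as independent support. The call ended on leaving out shunt pig 1, 2, 3 or 6 or control pig 1, 4 or 5, with adjusted p up to 0.146 and differences of 0.74 to 0.88 over all 11 omissions. For CIRBP the whole-course difference was -0.25 ± 0.20 (adjusted p = 0.690).

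The spiked-in control RNAs split the arrays by animal. The Dap control gave 2.77 to 3.32 on the 12 arrays of shunt pigs 1 to 4, 9.67 to 10.24 on the 6 arrays of shunt pigs 5 and 6, and 8.07 to 10.35 on the 15 arrays of the control pigs. The BioB control separated the last 2 of these sets, at 5.97 to 6.26 for shunt pigs 5 and 6 and 8.91 to 10.08 for the control pigs. No such set held animals of both arms, so in every comparison of the arms above, array set and arm cannot be told apart. Changes within a pig stay within a set. The rise of RBM3 at 120 min averaged 1.14 ± 0.25 in shunt pigs 1 to 4 and 1.16 ± 0.19 in shunt pigs 5 and 6 (SD), and the fall of CIRBP -1.44 ± 0.27 and -1.25 ± 0.14. Over the whole course RBM3 changed by 1.52 ± 0.31 and 1.33 ± 0.30 in these sets. CIRBP differed more between them, at -1.61 ± 0.31 and -0.92 ± 0.46 over the whole course and -0.17 ± 0.11 and 0.32 ± 0.60 in the last hour. Against the control pigs, the whole-course difference of RBM3 was 0.86 with shunt pigs 1 to 4 (adjusted p = 0.0526) and 0.68 with shunt pigs 5 and 6 (adjusted p = 0.455).

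The pair was next related within each animal. With the mean of each pig removed, RBM3 and CIRBP correlated at r = -0.92 across the 33 arrays, at -0.95 across the 18 shunt arrays, and at -0.91 across the 15 control arrays. These points share pigs and the common course over time, so the value is a description of the opposite courses. When the mean of each arm and biopsy was removed as well, r was -0.40 over all arrays, -0.56 over the shunt arrays and 0.073 over the control arrays.

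From pig to pig the relation between the sizes of the changes differed between the periods, a difference that was not tested. In the last hour it also depended on the pigs used. Since the RBM3 changes of the arms did not overlap at 120 min or over the whole course, r is given for these in the shunt pigs, and none was computed for the 5 control pigs alone. In the 6 shunt pigs the changes at 120 min gave r = -0.094 (exact permutation p = 0.933) and rho = 0.14 (exact permutation p = 0.803). Over the whole course they gave r = -0.77 (exact permutation p = 0.0667) and rho = -0.71 (exact permutation p = 0.136), and r = -0.87 over the 4 pigs left without the 2 farthest from the median. Over all 11 pigs with arm means removed, the whole-course r was -0.65 (permutation p = 0.0344), and with array-set means removed it was -0.61 (permutation p = 0.0405), both under 0.05 before adjustment. These permutation p do not allow for the means removed and can come out too small. With their set mean removed, shunt pigs 5 and 6 become mirror images of each other in both genes, whatever the data. Nothing is therefore read from these centred relations. In the last hour r was -0.087 over 11 pigs (permutation p = 0.834, rho = 0.16 with permutation p = 0.637), -0.12 without the 2 farthest pigs, and -0.51 in the shunt pigs (exact permutation p = 0.131, rho = -0.37 with exact permutation p = 0.497, and r = -0.65 without the 2 farthest). The adjusted p of the 4 relations without such centring were 0.261 to 0.933.

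Shunt pig 1 had the largest fall of CIRBP (-2.05) and the largest rise of RBM3 (1.76) over the whole course, and shunt pig 5 combined the smallest fall of CIRBP in all 11 (-0.60) with an RBM3 rise of 1.12. Control pig 5, by contrast, had a fall of -0.64 with a rise of 0.63, close to the rises of control pigs 3 and 4 (0.62 and 0.63), whose CIRBP changed by -1.50 and -1.31.

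**Figure D3:**
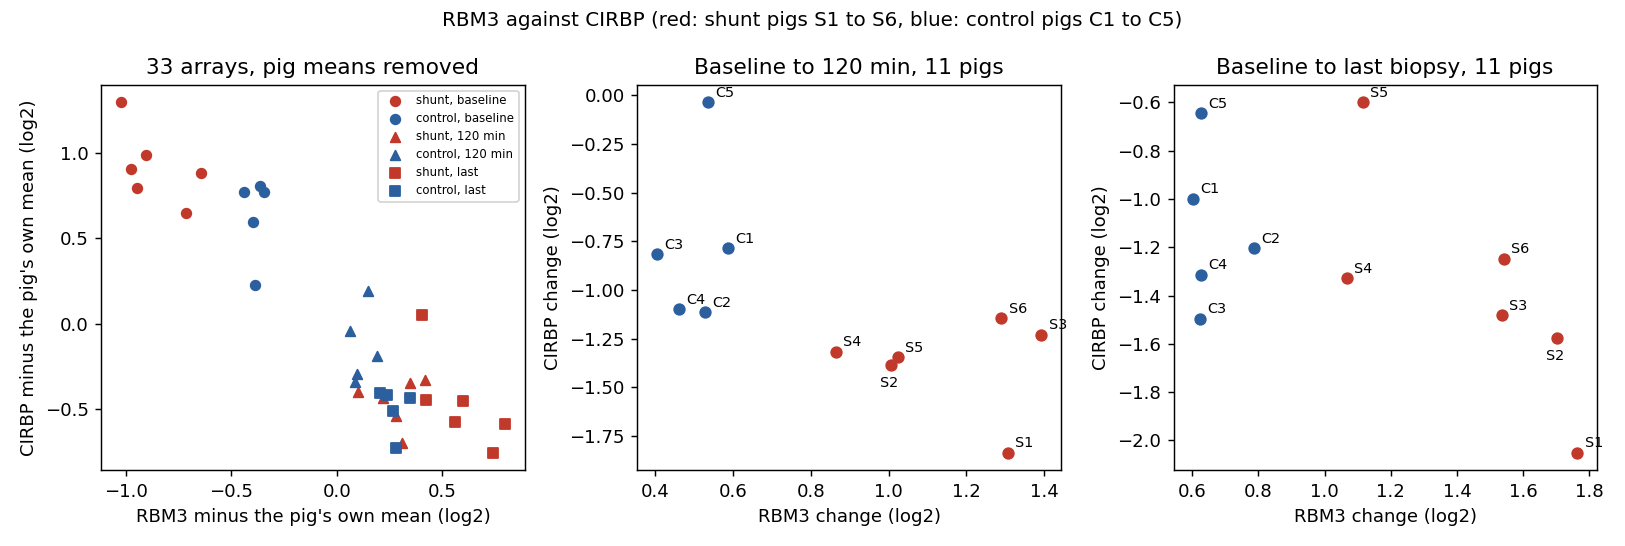
RBM3 against CIRBP on log2 scales. The left panel has the 33 arrays with the mean of each pig removed (circles baseline, triangles 120 min, squares last biopsy), and the other panels have the change of each pig from baseline to 120 min and from baseline to the last biopsy; shunt pigs are red (S1 to S6) and control pigs blue (C1 to C5). The arrays run from high CIRBP and low RBM3 at baseline to the reverse (r = -0.92), and the 6 shunt pigs lie to the right of the 5 control pigs on the RBM3 axis of both change panels.

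The genes whose course was most like that of RBM3, by r over the 33 arrays with pig means removed, were GNL3 (r = 0.98), a nucleolar GTP-binding protein, EIF4A1 (0.97), the helicase of translation initiation, RPS6KA3 (0.97), a kinase downstream of ERK, FSTL3 (0.97), a secreted activin-binding protein, FHL1 (0.96), a LIM-domain protein of muscle, and DDX21 (0.96), a nucleolar helicase. Like RBM3 these 6 were higher at 120 min, and none of them passed for a difference between the arms over the whole course. GNL3 changed by 1.72 and 0.97 over the whole course in the shunt and control arms, EIF4A1 by 1.85 and 1.13, and DDX21 by 1.75 and 0.97. The most opposite were the chromatin remodeller BAZ1B (-0.97), the lysosomal phosphatase ACP2 (-0.97, but -0.80 with its 3 probe sets averaged) and the methyltransferase METTL18 (-0.97). CIRBP was 55th from the most opposite end.

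For CIRBP the closest courses were those of OGT (r = 0.97), the enzyme that adds O-linked N-acetylglucosamine to proteins, LUC7L3 (0.96), a splicing factor, the septin SEPT8 (0.95), the nuclear anchoring protein AKAP8 (0.95), the histone methyltransferase SETDB1 (0.95) and the replication origin protein ORC4 (0.94). OGT changed by -0.82 ± 0.073 at 120 min (SE), LUC7L3 by -0.73 ± 0.084 and ORC4 by -0.72 ± 0.079. ORC4 rested on the brightest of 3 probe sets, and with these averaged its r was 0.70 and its change -0.27. Averaging took the changes of SEPT8 from -0.98 to -0.60 and of AKAP8 from -0.45 to -0.24, with r of 0.94 and 0.91. The most opposite courses were those of the growth arrest gene GADD45A (-0.95), EIF4A1 (-0.94) and the transcription factor CEBPG (-0.94). RBM3 ranked 17th from the opposite end. A strong r was common in these data, since 95% of 6764 genes lay between -0.89 and 0.89 for RBM3 and between -0.85 and 0.86 for CIRBP.

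Other genes of RNA binding and temperature response were set beside the pair, with the 29.0% of probe sets called at 120 min and a median change of -0.023 over 6765 genes as the background. Each gene is given by its brightest probe set, and its value with all its probe sets averaged is added where that ended the call or moved it over 1.5 times. The pair has 1 probe set each and cannot be checked in this way. Among the other 21 genes whose symbol begins with RBM, 6 rose, 5 fell and 10 did not pass, with a median of 0.053 and a range from -0.96 to 0.40. None rose as much as RBM3 or fell as much as CIRBP. RBM12B fell by 0.96 ± 0.13 (SE, adjusted p = 6.27e-06 by limma; -0.40 over its 2 probe sets) and RBM48 by 0.71 ± 0.096, both in 11 of 11 pigs. RBM5, a splicing regulator of apoptosis genes, fell by 0.33 ± 0.060 in 10 of 11 (-0.14 over its 3 probe sets). RBM23 rose by 0.40 ± 0.064 and RBM8A, a core protein of the exon junction complex, by 0.23 ± 0.044, both in 11 of 11. The call of RBM8A was lost over its 2 probe sets (0.058, adjusted p = 0.223 by limma).

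Of the proteins with a cold shock domain, 4 were measured. YBX3 rose by 0.19 ± 0.039 (SE, adjusted p = 0.000535 by limma), and CARHSP1 (0.14 ± 0.067), CSDC2 (0.10 ± 0.078) and YBX1 (-0.037 ± 0.039) did not pass. The hnRNP family, which packages nuclear RNA, had 3 rises and no fall among 17 genes with a median of 0.014. They were HNRNPA1 (0.28 ± 0.048), HNRNPAB (0.28 ± 0.068) and HNRNPDL (0.18 ± 0.064).

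The splicing factors and other regulators linked to temperature divided. Of 20 measured, 6 rose, 5 fell and 9 did not pass, with a median of 0.078. SRSF5 rose by 0.58 ± 0.050 (SE, adjusted p = 1.53e-08 by limma), SRSF7 by 0.56 ± 0.087, TRA2B by 0.35 ± 0.086 and SRSF2 by 0.29 ± 0.052, each in 11 of 11 pigs, while SRSF1 fell by 0.24 ± 0.055 in 10 of 11. These are serine- and arginine-rich factors, or relatives of them, that choose splice sites. Named after their values were seen, the kinases CLK1 and CLK4, which phosphorylate them and respond to temperature, were at 0.095 ± 0.10 and -0.17 ± 0.080, and HNRNPH1, which acts on RBM3 splicing, at 0.077 ± 0.076, none past the threshold.

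Among 19 measured genes reported as RNA targets or partners of the pair, 8 rose, 3 fell and 8 did not pass, with a median of 0.11. VEGFA, the angiogenic growth factor, rose by 0.60 ± 0.078 (SE), or 0.28 over 4 probe sets that ran from -0.28 to 0.69, and the chemokine CXCL8 by 1.94 ± 0.35, or 3.83-fold. CDKN1B, an inhibitor of the cell cycle, fell by 0.74 ± 0.12 (-0.37 over its 3 probe sets), the stress kinase MAPK14 by 0.41 ± 0.060 and RPA2, which coats single-stranded DNA, by 0.31 ± 0.058. These 5 moved in the same direction in 11 of 11 pigs. RTN3, a target of RBM3 named after its value was seen, was at -0.068 ± 0.052, and TXN, a target of CIRBP named likewise, at 0.13 ± 0.083, and neither passed.

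The heat shock list held the factors HSF1 and HSF2 and genes listed as targets, many of whose proteins refold damaged proteins and rise on warming. It had 11 rises, HSF2 among them, and 3 falls among 21 genes with a median of 0.36. HSPA6 rose by 4.03 ± 0.55 (SE), BAG3 by 1.56 ± 0.21, HSPB8 by 1.30 ± 0.15, CRYAB by 0.54 ± 0.058 and HSPA4 by 0.48 ± 0.077, each in 11 of 11 pigs. The 2 probe sets of CRYAB disagreed in size, at 0.54 and 3.23, with a mean of 1.88. The 3 of HSPA4 disagreed in direction, from -0.24 to 0.48, and its call was lost over their mean (0.10, adjusted p = 0.122 by limma). With probe sets averaged, 9 genes of this list rose and 3 fell. HSF1 itself was at -0.013 ± 0.050. Of 8 clock genes 4 rose and none fell, with a median of 0.23: BHLHE40 rose by 1.16 ± 0.14 in 11 of 11 pigs (0.60 over its 2 probe sets, the other of which was at 0.032), NFIL3 by 0.96 ± 0.20 and ARNTL by 0.46 ± 0.087 in 10 of 11, and RORA by 0.37 ± 0.12 in 9. The lists were drawn up with earlier results known and share 3 genes (HNRNPF, HNRNPH1 and HNRNPH2).

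**Figure D4:**
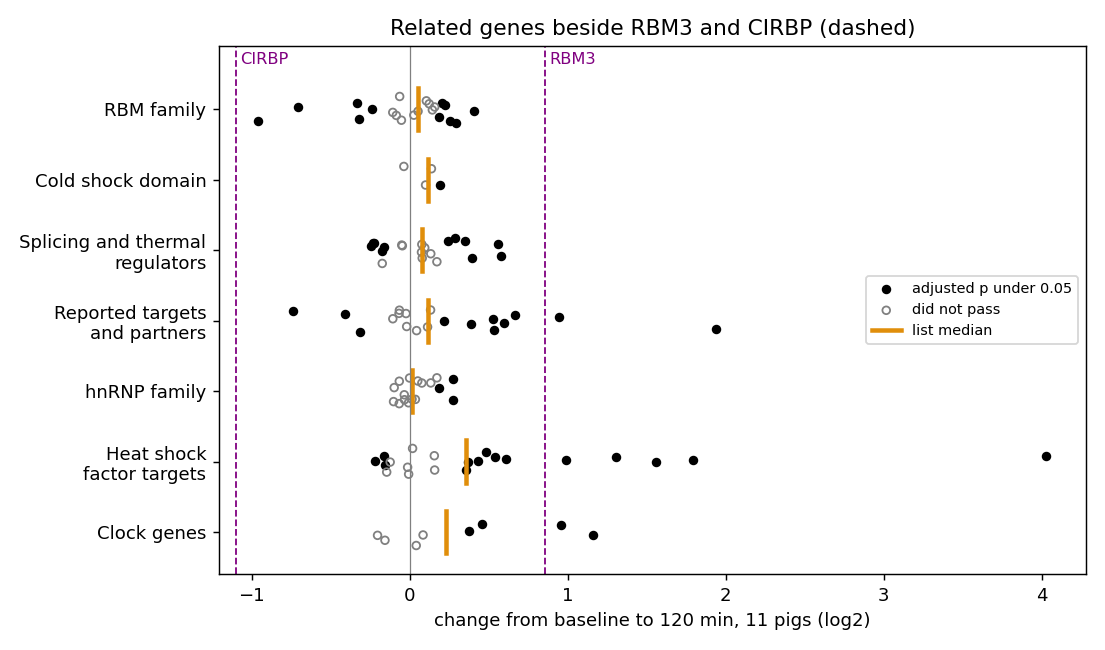
Change from baseline to 120 min (log2, mean over 11 pigs) of the genes of 7 related lists, 1 point per gene, without RBM3 and CIRBP themselves, whose changes are the dashed lines at 0.85 and -1.10. Filled points passed an adjusted p of 0.05, open points did not, and orange bars are list medians; no other gene of the lists fell as far as CIRBP, and genes as high as RBM3 lie in the target, heat shock and clock lists.

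At the last biopsy the shunt arm had 32.6% of the probe sets called and the control arm 8.79%. Of the RBM genes 6 rose and 4 fell in the shunt arm, and 3 fell in the control arm. Of the splicing regulators 8 rose and 4 fell in the shunt arm, and 3 rose and 1 fell in the control arm. No gene of the 7 lists passed for a difference between the arms over the whole course by limma, in which 2922 probe sets had an unadjusted p under 0.05.

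Markers of ventricular cardiomyocytes, some of them shared with other muscle, were bright on these arrays: the 12 measured stood above 96.9% or more of the probe sets, although the brightness of different probes does not rank abundance. Their mean level ran from 13.94 to 14.03 at baseline, from 13.79 to 13.96 at 120 min and from 13.68 to 13.98 at the last biopsy for the shunt pigs. For the control pigs the ranges were 13.88 to 14.04, 13.83 to 13.98 and 13.80 to 14.00. At 120 min PLN fell by 0.44 ± 0.094 (SE) and the other 11 did not pass, where 17.4% of all probe sets fell past the threshold. Over the whole course in the shunt arm PLN fell by 0.77 ± 0.13, CKM by 0.22 ± 0.062 and TNNT2 by 0.21 ± 0.063, and in the control arm PLN was at -0.30 ± 0.14, which did not pass. Of all probe sets 19.2% fell past the threshold over that course in the shunt arm. In a biopsy, fewer cells of a type and less RNA per cell cannot be told apart.

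Markers of neutrophils and monocytes rose in 3 of 6 cases at 120 min (S100A9, TYROBP and CD14), where 11.6% of all probe sets rose past the threshold. Their mean level went from 5.88 ± 0.16 at baseline to 6.63 ± 0.53 and 6.98 ± 0.61 for the shunt pigs, and from 5.88 ± 0.13 to 5.92 ± 0.12 and 6.21 ± 0.15 for the control pigs (SD). In the control pigs RBM3 and CIRBP changed by 0.50 and -0.77 at 120 min, where the mean of that list was 5.88 before and 5.92 after. In the shunt pigs RBM3 and CIRBP changed by 1.15 and -1.38, where that mean was 5.88 before and 6.63 after. Resident macrophage markers rose in 2 of 5 cases (CD163 and MRC1) and smooth muscle and pericyte markers in 2 of 5 (TAGLN and CNN1). The other 3 of the smooth muscle and pericyte list did not pass, and its median change at 120 min was -0.016 (range -0.17 to 1.14). The mean level of that list was 9.41 ± 0.28, 9.86 ± 0.34 and 10.04 ± 0.53 over the 3 biopsies of the shunt pigs (SD), and the control pigs had 9.72 ± 0.15, 9.85 ± 0.23 and 9.89 ± 0.11. The part of all these markers in the changes of RBM3 and CIRBP was not tested. The 3' to 5' difference of GAPDH, a sign of RNA quality, changed by 0.037 ± 0.22 from baseline to 120 min (SD, higher in 6 of 11 pigs), in no common direction. It changed by -0.0175 ± 0.071 in the shunt pigs and 0.10 ± 0.33 in the control pigs. In control pig 5 (CIRBP -0.036) it went from 0.64 to 0.99, and in control pig 1 (CIRBP -0.79) from 0.60 to 0.90. In the last hour it went from 0.66 to 0.92 in shunt pig 5 (CIRBP 0.75), from 0.72 to 1.03 in control pig 4 (-0.22) and from 0.96 to 0.51 in control pig 3 (-0.68). Its part in the changes of the pair was not tested.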

How the data were processed

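RNA of each biopsy, extracted with TRIzol and cleaned on RNeasy columns, was labelled with biotin and hybridised to 1 Affymetrix array, per the labels' protocols. The deposited values are on a log2 scale and were made by the authors with RMA, per the submitters' processing notes; which software and which set of arrays entered RMA is not given in the sources used here. Values ran from 2.21 to 15.2 and array medians from 6.10 to 6.17. They were used as deposited.

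The 124 Affymetrix control sets among 24123 were dropped, and a gene was taken as its brightest single-symbol probe set. Nothing says that an animal gave more than 1 biopsy per time, so p-values measure the spread between pigs. Changes were fitted in R 4.3.3 with limma 3.58.1 on all 33 arrays, with pig as a block and the biopsies at 120 min and 60 min later in each arm as coefficients (18 residual degrees of freedom). Baselines were compared on their 11 arrays. Adjusted p are Benjamini-Hochberg over 23999 probe sets, threshold 0.05, and tests are two-sided. The fit was tested on simulated data. The pairing is by animal in the labels: deviations from group means correlated at a median r of 0.40 within pigs and -0.052 between pigs. Single values used exact permutation tests, and 11 pigs 100000 resamples for correlations. Arrays hold no depth, and their number limits the precision.

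Named genes were the pair, the 6 genes most like and the 3 most opposite to each, and up to 5 members of each list with the smallest p at 120 min; exceptions are marked. The members and lists were chosen with earlier results of these data known. Alternatives were median centring, quantile normalisation, leaving out the pig term or making it random (statmod), fitting the compared arrays alone, robust eBayes with a trend on intensity, dropping the dimmest 30%, array weights, a minimum of 1.5-fold, each pig left out, each array set, and a gene's probe sets averaged; the fits of each shunt set against the control pigs were added after seeing the data, as was the restriction of correlations to the shunt arm.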

Additional observations from a re-analysis of the deposited data

Results flagged for a closer look

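The whole-course difference of RBM3 between the arms, 0.80 on the log2 scale, passed the test of the difference itself and is listed for that. In 24 groups of values of the pair (levels by group and changes by arm) 3 samples stood apart from the rest of their group by Dixon's criterion, of which chance gives about 1 in 20 groups. The RBM3 rise of control pig 2 over the whole course was 0.79, against 0.63 in the next pig. The CIRBP change of shunt pig 1 at 120 min was -1.84, against -1.39 in the next. The CIRBP change of shunt pig 5 in the last hour was 0.75, against -0.011 in the next.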

How the results depend on the processing

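Of 197 recomputed results of the pair and their relations, not counting omissions of a pig, 183 counted as unchanged. A tested result did so if it kept its direction and side of the threshold. Most tested results had not passed in the main fit, so for these it means that they stayed uncalled. A change given without a test did so if it kept its direction and moved by less than the SD between pigs. The whole-course difference of RBM3 between the arms kept its size but not its call: it was 0.80 with no replicate block (adjusted p = 0.315), with only the arrays compared (0.156) and against a minimum of 1.5-fold (1.00), 0.86 with shunt pigs 1 to 4 (0.0526) and 0.68 with shunt pigs 5 and 6 (0.455), and 0.74 to 0.88 with a pig left out (0.00314 to 0.146). Pairing is by animal, and leaving out the block changed no other call of the pair. The CIRBP change of the shunt arm in the last hour, near 0, turned to 0.020 with median-centred arrays and 0.32 in shunt pigs 5 and 6, and ran from -0.15 to 0.046 with a pig left out. The CIRBP whole-course difference was 0.21 with shunt pigs 5 and 6. Of the correlations, r at 120 min turned to 0.011 with median centring, 0.019 with arm means removed and 0.011 with array-set means removed; r in the last hour turned to 0.15 with quantile normalisation and ran from -0.21 to 0.22 with a pig left out, turning without shunt pig 5; and r over the whole course was -0.65 (permutation p = 0.0344) with arm means and -0.61 (permutation p = 0.0405) with array-set means removed. The permutation p of the centred relations do not allow for the means removed. The shunt-only r was not run with each pig left out in turn, only without the 2 farthest pigs.

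Counts of probe sets called by limma moved more. At 120 min they were 245 against 1.5-fold, 1790 for the control pigs alone, 2369 for shunt pigs 1 to 4 and 454 for shunt pigs 5 and 6. In the last hour of the shunt arm they were 1 with pig as a random block, 46 with array weights and 0 to 11 with a pig left out. For the whole-course difference they were 0 with no block, with only the arrays compared, against 1.5-fold and with shunt pigs 1 to 4, 189 with array weights, and 0 to 274 with a pig left out. At baseline they were 1 with median centring and with a robust trend, 0 against 1.5-fold and with shunt pigs 1 to 4, 16 with shunt pigs 5 and 6, and 0 to 2 with a pig left out. The cause of these shifts was not tested. With all probe sets of a gene averaged, the rises and falls at 120 min were 7 and 4 among RBM genes, 8 and 4 among splicing regulators and 9 and 3 among heat shock genes, and those of the other lists kept their counts.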
